A study of Mus musculus with 2 samples.

Results

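Expression of 40 genes, 27 of the interferon response and 13 of MHC class I presentation, was examined in stromal cells of the mouse lung. The genes were chosen by name and function, matched from Ensembl identifiers to symbols, and all 40 were found among the 21014 genes listed for both libraries. The lung fibroblastic stroma came from C57Bl/6J mice fed a high fat diet (HFD) or normal chow (NC) for 16 weeks, with 1 droplet-based 3′ single-cell library per diet. The sources used here do not give the number, age or sex of the animals, or any sort or pooling. Since each diet had a single library, no difference could be checked against replicates or tested. Every difference is between these 2 libraries, and every interval is a 95% counting interval that leaves out the spread between animals.

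Interferons are secreted proteins that cells release on sensing viral or bacterial products. Type I interferons act through IFNAR1 and IFNAR2 and lead to a complex with STAT2 and IRF9 that binds the interferon-stimulated response element, whereas interferon gamma acts through IFNGR1 and IFNGR2. Both induce the machinery of class I presentation, in which proteasomes cut proteins, TAP carries the peptides into the endoplasmic reticulum, and heavy chains paired with beta-2-microglobulin display them to CD8 T cells. Fibroblasts respond to both kinds of interferon and carry class I molecules.

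Promoter sequences of the members were searched in RefSeq (GRCm38.p6) for the core of the interferon-stimulated response element, which reads GAAA, any 2 bases and GAAA, or TTTC, any 2 bases and TTTC on the other strand. Each window spanned 250 bases before to 50 bases after the gene's start, and matches could overlap one another. An entry was found for 21 of the 27 interferon genes, and 13 of these held the element (61.9%), against 1079 of 27025 genes in the whole table (3.99%). Ifi27l2a, Usp18, Rtp4, Zbp1, Parp14 and Iigp1 had no entry. Of the presentation genes, 11 of 13 had an entry and 3 held it (H2-T23, B2m and Erap1, 27.3%), and Tap2 and Nlrc5 had no entry. A match describes letters in a window and says nothing about binding.

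The 160 bases before the start are printed for 6 members whose values are compared further on, with matches to the core on either strand in capitals. Ifit3 and Ifit1 lie in the same gene cluster, with paired matches and different HFD over NC ratios, Igtp and Irgm1 belong to the same GTPase family, Ifi205 had the lowest ratio of the measured members, and B2m is the shared light chain.
Ifit3, chr19:34583369-34583528, plus strand: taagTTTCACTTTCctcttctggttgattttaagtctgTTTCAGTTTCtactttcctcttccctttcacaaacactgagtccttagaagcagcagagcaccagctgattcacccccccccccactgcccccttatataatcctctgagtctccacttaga
Ifit1, chr19:34640729-34640888, plus strand: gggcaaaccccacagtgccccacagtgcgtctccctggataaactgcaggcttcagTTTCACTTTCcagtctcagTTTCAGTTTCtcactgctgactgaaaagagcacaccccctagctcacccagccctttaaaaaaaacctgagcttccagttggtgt
Igtp, chr11:58199396-58199555, plus strand: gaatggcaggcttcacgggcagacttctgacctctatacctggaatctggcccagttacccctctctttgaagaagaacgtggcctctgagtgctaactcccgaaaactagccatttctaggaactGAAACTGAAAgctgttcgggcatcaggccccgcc
Irgm1, chr11:48871421-48871580, minus strand: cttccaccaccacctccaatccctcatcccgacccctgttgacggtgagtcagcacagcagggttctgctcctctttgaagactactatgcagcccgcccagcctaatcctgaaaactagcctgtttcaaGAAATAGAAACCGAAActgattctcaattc
Ifi205, chr1:174031756-174031915, minus strand: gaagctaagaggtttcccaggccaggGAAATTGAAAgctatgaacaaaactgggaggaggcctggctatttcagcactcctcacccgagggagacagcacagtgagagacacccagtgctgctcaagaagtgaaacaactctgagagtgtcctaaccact
B2m, chr2:122147527-122147686, plus strand: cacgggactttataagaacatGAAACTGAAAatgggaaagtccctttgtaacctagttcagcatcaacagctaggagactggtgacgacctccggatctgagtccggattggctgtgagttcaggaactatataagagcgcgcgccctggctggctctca
The Ifit3 matches begin 156 and 122 bases before its start and those of Ifit1 104 and 85 bases before. In Igtp and Irgm1 the matches lie nearer, beginning 34 bases and 30 and 24 bases before the start. The single matches of Ifi205 and B2m begin 134 and 139 bases before it.

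Tap1 and Psmb9, which encode a subunit of the peptide transporter and a subunit of the immunoproteasome, are transcribed away from each other. They share the 225 bases between their starts, printed on the strand of Tap1, because their HFD over NC ratios differed. The stretch holds 0 matches to the core on either strand.
Tap1 and Psmb9, chr17:34187331-34187555, plus strand: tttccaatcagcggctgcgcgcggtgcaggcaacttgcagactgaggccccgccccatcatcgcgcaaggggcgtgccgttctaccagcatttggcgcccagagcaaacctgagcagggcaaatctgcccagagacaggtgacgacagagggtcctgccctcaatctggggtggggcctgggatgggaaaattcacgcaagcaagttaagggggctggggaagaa

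Cells under 500 genes or over 10% mitochondrial counts were dropped, which kept 6089 of 6971 from HFD and 8140 of 9015 from NC, and 16 kept barcodes occurred in both libraries. The deposited annotation names Asc1, Gas6 and Pi16 fibroblasts and myofibroblasts, pooled here as 5493 HFD and 7890 NC fibroblasts, and a class labelled pericytes with 596 and 250 cells. In that class, summed smooth muscle markers stood at 28670 CPM in HFD and 28040 CPM in NC, against 685 and 540 CPM for pericyte markers. Both sums were the highest of the 5 classes in each library, with pericyte markers next in myofibroblasts (578 and 367 CPM). These sums do not settle which cells the class holds, so the label is given as deposited. CPM is a gene's count summed over the cells of a class, scaled so that all genes sum to 1000000, and is not corrected for length. Alveolar fibroblast markers were highest in Asc1 cells (12320 and 10150 CPM in HFD and NC) and adventitial markers in Pi16 cells (8731 and 9051 CPM). The pooled fibroblasts held 57794406 counts in HFD and 65530663 in NC, with medians of 9541 and 7402 counts per cell. Asc1 cells gave 26399356 of these counts in HFD and 25517259 in NC, and Gas6 cells 19383310 and 27184448. Class make-up thus enters every pooled ratio. Because recovered counts spread more than single molecules would, they were divided by 4.85 in HFD and by 3.98 in NC before intervals were computed, and a gene with 50 or more of these effective counts in all was called measured. The same divisor served every gene of a library, so the intervals of ratios leave out any wider spread between cells. Higher or lower by size means an HFD over NC ratio beyond 1.5-fold.

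In the pooled fibroblasts the interferon genes showed no shared direction, and most presentation genes lay slightly lower in HFD. Of the 27 interferon genes 25 were measured, with 2 higher by size (Ifit3 and Ifi27l2a), 2 lower (Ifi205 and Igtp) and 21 within 1.5-fold. Over all 13422 measured genes 10.2% passed this size, 5.45% higher and 4.75% lower, against 4 of 25 here. The median log2 ratio of the interferon genes was −0.03 against 0.02 over all measured genes, with 9 ratios above 1 and 16 below. Of the 13 presentation genes 12 were measured, 0 passed 1.5-fold, 10 had ratios below 1, where 6211 of all 13422 measured genes did, and their median was −0.11. At a smaller size, a ratio of 5 to 4, which 30.5% of all genes passed (17% higher and 13.4% lower), 7 interferon genes were higher and 3 lower. At that size 0 presentation genes were higher and 3 lower, which were Tap1, H2-K1 and H2-D1. The summed level of the 27 interferon genes was 3401 CPM in HFD and 3346 CPM in NC, and that of the 13 presentation genes 1991 and 2387 CPM. Without the abundant Ifitm3, Ifi27l2a, Irf1 and Iigp1, the other 23 interferon genes summed to 523 CPM in HFD and 587 CPM in NC.

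**Figure D1:**
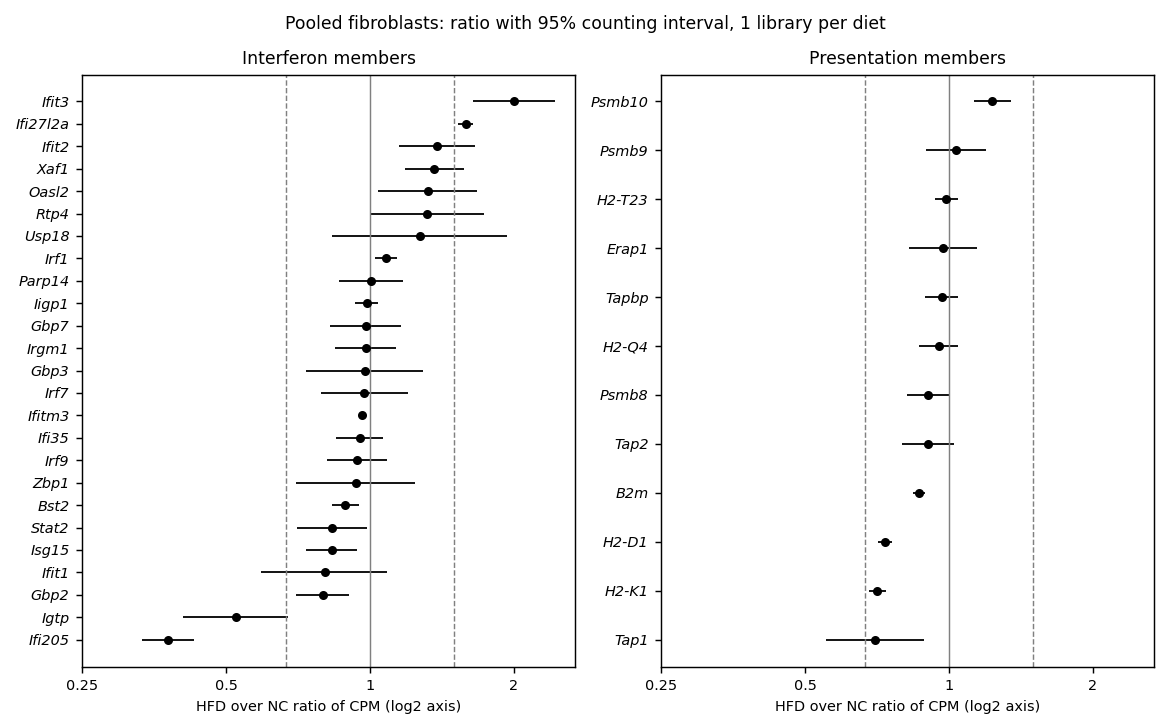
HFD over NC ratio of CPM for the 25 measured interferon genes (left) and 12 measured presentation genes (right) in pooled fibroblasts, on a log2 axis, with points as ratios, bars as 95% counting intervals and dashed lines at 1.5-fold. Ifit3 (1.999) and Ifi27l2a (1.59) lie above the upper dashed line and Ifi205 (0.378) and Igtp (0.525) below the lower one, while all 12 presentation genes lie between the lines.

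The transcription factor genes among the members had HFD over NC ratios within 1.5-fold, while Ifngr1 and Stat3, signalling genes outside the 40, were lower in HFD by about as much as the classical heavy chains. Irf1, a transcription factor induced by interferon gamma and by NF-kB, was at 214 CPM in HFD and 198 CPM in NC (ratio 1.08, 1.03 to 1.14). Irf9 and Stat2, which encode parts of the type I complex, were at 26.6 and 28.3 CPM (0.941, 0.813 to 1.09) and at 18.8 and 22.6 CPM (0.833, 0.702 to 0.985). Irf7, which amplifies type I interferon production, was at 13.1 and 13.5 CPM (0.974, 0.788 to 1.20). Of 14 listed receptor and JAK-STAT genes 12 were measured, and 0 were past 1.5-fold in either direction. The receptor chains Ifnar1, Ifnar2 and Ifngr2 had ratios of 0.919 (0.799 to 1.06), 1.01 (0.956 to 1.08) and 0.955 (0.822 to 1.11). Ifngr1, the ligand-binding chain of the interferon gamma receptor, was lower at 177 CPM in HFD and 238 CPM in NC (0.743, 0.704 to 0.783). It passed 1.5-fold in Asc1 cells, at 214 CPM in HFD and 334 CPM in NC (0.642, 0.597 to 0.690), in myofibroblasts (0.556) and in the class labelled pericytes (0.570), and stood at 0.843 in Gas6 and 0.940 in Pi16 cells. Stat3, which acts mainly downstream of interleukin-6 family cytokines, had a ratio of 0.713 (0.677 to 0.751). Of 9 interferon ligand genes 1, Ifng, was in the tables, with 0 counts in HFD and 4 in NC fibroblasts, so the source of any interferon was not measured here.

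Within the IFIT family, whose proteins bind viral RNA and restrain translation, the ratios of genes in the same cluster differed. Ifit3 stood at 21.7 CPM in HFD and 10.8 CPM in NC (ratio 1.999, 1.65 to 2.43). It was detected in 4.79% of HFD and 2.48% of NC fibroblasts. Ifit2 stood at 19.98 and 14.5 CPM (1.38, 1.15 to 1.66), and Ifit1 at 5.95 and 7.40 CPM (0.804, 0.591 to 1.09). The interval of Ifit1 lies below that of Ifit3 although both promoters carry paired elements. Ifit3b, a near-identical copy of Ifit3 that can share its reads, was at 4.62 CPM in HFD and 2.40 CPM in NC (1.93, 1.26 to 2.98), so it is no separate value. With every cell thinned to 5000 counts, Ifit3 was detected in 4.10% of HFD (3.56 to 4.69) and 2.09% of NC fibroblasts (1.75 to 2.48).

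Ifi27l2a, a small interferon-induced membrane protein gene, was at 486 CPM in HFD and 307 CPM in NC (1.59, 1.53 to 1.65). Its share of cells with a count was closer, at 36.1% of HFD and 32.6% of NC fibroblasts. The size of the difference depended on the class, as given further on, and the log2 ratio was 0.66 in the pooled fibroblasts but 0.50 without the Asc1 class and 0.48 with all 5 classes pooled, both under 1.5-fold.

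Among the other antiviral effectors, several lay between the 2 sizes, higher in HFD. Xaf1, an interferon-induced pro-apoptotic gene, was at 32.4 CPM in HFD and 23.8 CPM in NC (1.37, 1.18 to 1.58). Oasl2, of the oligoadenylate synthetase family, was at 11.8 and 8.90 CPM (1.32, 1.04 to 1.68), and Rtp4, a receptor transporter protein, at 8.86 and 6.73 CPM (1.32, 0.999 to 1.74). Usp18, the protease that removes ISG15 and dampens type I signalling, was at 3.86 and 3.04 CPM, with an interval from 0.832 to 1.94 that spans 1. Isg15, a ubiquitin-like modifier, was lower at 34.6 CPM in HFD and 41.6 CPM in NC (0.832, 0.734 to 0.941). Bst2, which tethers budding virus to the cell surface, was at 130.4 and 147 CPM (0.888, 0.833 to 0.947). Ifitm3, which blocks viral fusion, was at 1994 and 2068 CPM (0.964, 0.948 to 0.980), with a count in 92.1% and 92.3% of cells. Ifi35 was at 43.2 and 45.4 CPM (0.951), Zbp1, which encodes a sensor of Z-form nucleic acid, at 7.03 and 7.52 CPM (0.934), and Parp14, an ADP-ribosyltransferase gene, at 23.9 and 23.8 CPM (1.01). Each of these 3 intervals held 1. Ifi44 (67 counts in HFD and 32 in NC) and Rsad2, which encodes viperin (23 and 69 counts), were not measured.

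The GTPases that interferon gamma induces in mice to attack vacuoles of pathogens were mixed, with Iigp1 and Irgm1 close to equal and Igtp lower in HFD. Igtp was at 7.51 CPM in HFD and 14.3 CPM in NC (0.525, 0.407 to 0.673), with a count in 2.42% and 3.43% of fibroblasts. Iigp1 was at 184 and 187 CPM (0.985, 0.932 to 1.04) and Irgm1 at 25.8 and 26.3 CPM (0.979, 0.843 to 1.14). Gbp2, a guanylate-binding protein gene, was at 31.96 and 40.1 CPM (0.797, 0.701 to 0.906), while Gbp3 was at 7.51 and 7.69 CPM (0.976) and Gbp7 at 19.7 and 20.1 CPM (0.980). The other genes of the immunity-related GTPase family were Ifi47 at 2.37 CPM in HFD and 6.76 CPM in NC (0.351, 0.223 to 0.534), Irgm2 (0.926, 0.744 to 1.15) and the pair Tgtp1 and Tgtp2. Tgtp2 had 45 counts in 15 HFD cells and 307 counts in 68 NC cells (0.166, 0.0742 to 0.329). Tgtp1 (0.171) is a near-identical copy whose reads cannot be told from those of Tgtp2. Of the 7 measured genes of this family, grouped after their values had been seen, Igtp, Ifi47 and the pair Tgtp1 and Tgtp2 were lower by size, where 4.75% of all measured genes were, and all 7 had ratios below 1. For the guanylate-binding proteins 0 of 6 passed 1.5-fold and all 6 had ratios below 1. Over all measured genes 6211 of 13422 had a ratio below 1.

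Ifi205, of the PYHIN family of nucleic acid-binding proteins, had the lowest ratio of the 37 measured members. It was at 27.3 CPM in HFD and 72.1 CPM in NC (0.378, 0.333 to 0.428) and was detected in 6.12% of HFD fibroblasts, against 11.9% of NC fibroblasts. Other genes of its cluster on the chromosome were lower as well, with Ifi211 at 28.1 and 64.2 CPM (0.437, 0.385 to 0.495) and Ifi204 at 6.37 and 12.2 CPM (0.524, 0.397 to 0.686). Ifi207, Ifi203 and Mndal had ratios of 0.706, 0.841 and 0.894. These genes are close copies that can share reads, and strand use in the counting is not given in the sources used here. In cells thinned to 5000 counts, Ifi211 was detected in 67.8% of HFD and 69.1% of NC cells that held Ifi205, against 2.70% and 4.60% of the cells that did not. Isg15 was found in 8.58% and 10.8% of the Ifi205 cells and in 5.44% and 6.04% of the rest.

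**Figure D2:**
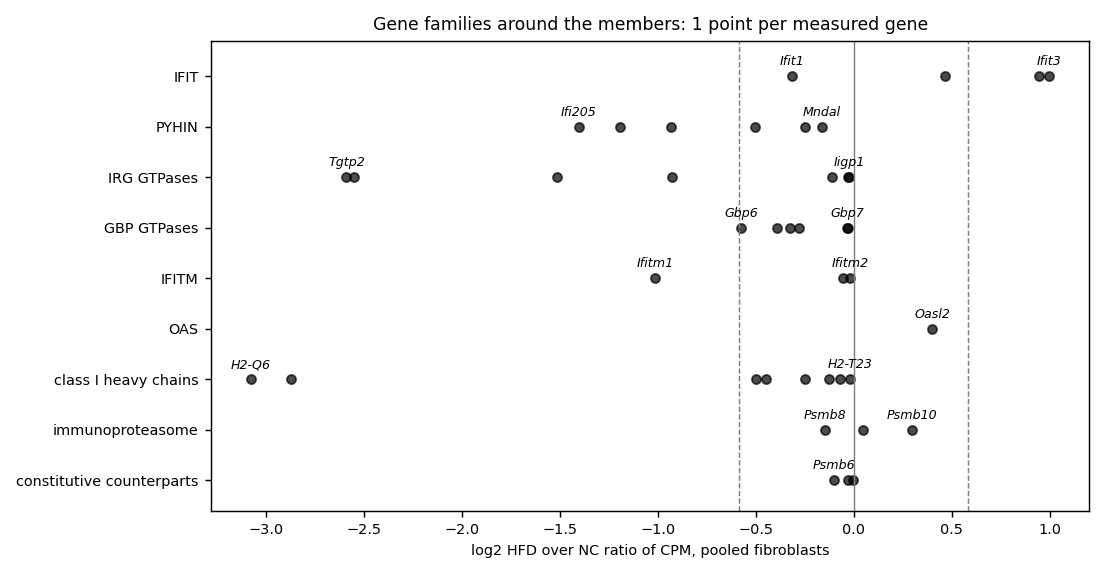
Log2 HFD over NC ratio of CPM in pooled fibroblasts for the measured genes of each family (1 point per gene, members and their relatives, grouped after values had been seen), with dashed lines at 1.5-fold and the lowest and highest gene named where there is room. IFIT genes spread from −0.31 to 1, whereas all 6 PYHIN, 7 immunity-related GTPase, 6 guanylate-binding protein and 8 class I heavy chain genes lie below 0. Of all 13422 measured genes 6211 lie below 0, and near-identical copies within a family can share reads. The heavy chain row leaves out class I-like genes, of which Mr1, Hfe and Fcgrt were above 0 and Cd1d1 below.

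Among the class I heavy chains, the classical genes were lower in HFD by less than 1.5-fold and a scarce group of Q-region genes by far more. H2-K1 was at 277.5 CPM in HFD and 392 CPM in NC (0.708, 0.678 to 0.738), with a count in 48.1% and 54.1% of fibroblasts. H2-D1 was at 452 and 616 CPM (0.734, 0.710 to 0.759). H2-T23, which encodes the nonclassical molecule Qa-1 that natural killer receptors recognise, was at 179 and 181 CPM (0.987, 0.933 to 1.04), and H2-Q4 at 61.7 and 64.9 CPM (0.951, 0.865 to 1.05). B2m, the light chain of all these molecules, was at 703 CPM in HFD and 813 CPM in NC (0.864, 0.841 to 0.888). Within each class the ratio of B2m lay nearer to 1, as given further on, so its pooled value also reflects class make-up. H2-Q7, a nonclassical heavy chain gene outside the 40, was at 2.11 CPM in HFD and 15.4 CPM in NC (0.137, 0.0870 to 0.207), with a count in 35 of 5493 and 209 of 7890 cells. H2-Q6, a near-identical copy, had a ratio of 0.119 (0.0420 to 0.272). Heavy chain genes resemble one another over long stretches, so reads may be split among H2-K1, H2-D1 and the Q genes, and each value is uncertain to that extent. Mr1, which presents vitamin metabolites rather than peptides, was higher at 41.5 CPM in HFD and 31.3 CPM in NC (1.33, 1.17 to 1.504). A list of heavy chain and class I-like genes outside the 40 had 8 measured genes, of which 3 had ratios above 1. In that list 2 were lower by size, where 4.75% of all measured genes were.

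The peptide supply genes were nearly equal in both libraries apart from Tap1 and Psmb10. Tap1 was at 9.29 CPM in HFD and 13.3 CPM in NC (0.701, 0.552 to 0.885), and its partner subunit Tap2 at 35.5 and 39.3 CPM (0.903, 0.797 to 1.02). Psmb9, transcribed from the other side of the stretch printed for Tap1, was at 28.1 and 27.2 CPM (1.03, 0.893 to 1.19), an interval just above that of Tap1. Psmb8, which sits beside them, was at 52.0 and 57.6 CPM (0.904, 0.815 to 1.001). Psmb10, the third catalytic subunit of the immunoproteasome, had the highest ratio of the measured presentation genes, at 79.5 CPM in HFD and 64.6 CPM in NC (1.23, 1.13 to 1.34). The constitutive subunits that these replace, Psmb5, Psmb6 and Psmb7, had ratios of 0.997, 0.932 and 0.979. Tapbp, which encodes tapasin of the loading complex, was at 92.1 and 95.5 CPM (0.965), and Erap1, the trimming peptidase, at 21.1 and 21.8 CPM (0.971). Nlrc5, the transactivator of class I genes, had 18 counts in HFD and 66 in NC and was not measured. Of 12 measured folding and loading genes outside the 40, 2 were lower by size, where 4.75% of all measured genes were. These were Hspa5 (0.376, 0.366 to 0.387) and Calr, which encodes calreticulin of the loading complex, at 217 CPM in HFD and 342 CPM in NC (0.633, 0.604 to 0.664). Of the 12 genes 11 had ratios below 1, where 6211 of all 13422 measured genes did. Their median log2 ratio was −0.19.

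Among 45 measured genes of a wider list of interferon-induced genes outside the 40, 1 was higher by size (Ifit3b) and 9 were lower, where 5.45% and 4.75% of all genes were. Ifit3b shares reads with Ifit3, and Tgtp1 and Tgtp2 with each other, so these are fewer separate values than the counts say. The 9 were Cxcl9, Cxcl10, Tgtp1, Tgtp2, Ifi47, Ifi204, Ifi211, Ifitm1 and Ly6a. Cxcl9, a chemokine gene that depends on interferon gamma, had 4 counts in 2 HFD cells and 276 counts in 35 NC cells. Cxcl10, a chemokine gene that answers to several stimuli, was at 166 and 257 CPM in HFD and NC (0.647, 0.613 to 0.682). Ifitm1 was at 104.5 and 211 CPM (0.496, 0.464 to 0.529), against 0.987 for Ifitm2. The median log2 ratio of the 45 genes was −0.02, so the list as a whole lay near the median of all genes. Of 20 proteasome genes 1 was lower (Psme3), of 13 nucleic acid sensors and adaptors 0 passed 1.5-fold, and of 9 class II genes 4 were lower.

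Markers of immune cells also differed between the libraries within the cells annotated as fibroblasts. Summed levels in HFD and NC were 38.7 and 53.8 CPM for 9 macrophage and monocyte markers, 1.61 and 5.01 CPM for 3 dendritic cell markers, 0.813 and 3.53 CPM for 4 neutrophil markers and 0.363 and 2.37 CPM for 7 T cell markers. Cd3e, Cd8a and Itgax were at 0 in both libraries, and Adgre1, Retnlg, Trac and Ms4a1 in HFD. Markers of B cells, 5 genes, summed to 0.363 and 234 CPM. The 7 markers of natural killer and innate lymphoid cells summed to 148.5 and 186 CPM, and Rora, Il7r and Gata3 among them are not confined to lymphoid cells. With the 2241 HFD and 3653 NC kept cells that hold any such count left out, the ratios were 0.334 for Ifi205, 0.535 for Igtp, 2.19 for Ifit3, 0.721 for H2-K1, 0.182 for H2-Q7, 0.180 for Tgtp2 and 0.359 for Ifi47. Of the 4 class II genes lower by size, H2-Ab1 was at a ratio of 0.646 without those cells and 0.316 in all fibroblasts, Cd74 at 0.815 and 0.324, H2-Aa at 0.971 and 0.367, and H2-Eb1 at 0.403 and 0.364. Ratios of Tap1 and Gbp3 were 0.827 and 0.666 without those cells. Without the 71 HFD and 174 NC cells that held a class II count, Ifi205 was at 0.379, Igtp at 0.566 and H2-Q7 at 0.141. Free RNA in the droplets was not tested.

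A further question was whether HFD and NC differed alike in each class. The number of measured members was 35 in Asc1, 36 in Gas6, 31 in Pi16, 17 in myofibroblasts and 20 in the class labelled pericytes. In Asc1 cells 2 members were higher and 2 lower by size, where 10.3% of all measured genes were, 4.88% higher and 5.46% lower. In Gas6 cells 2 were higher and 3 lower, where 12% of all genes passed, 6.08% higher and 5.91% lower. In Pi16 cells 1 was higher and 5 lower, against 11.6% of all genes, 5.7% higher and 5.88% lower. In myofibroblasts 3 were higher and 1 lower, against 15.6%, with 7.62% higher and 7.94% lower. In the class labelled pericytes 1 was higher and 2 lower, against 18.2%, with 11.4% higher and 6.77% lower. The last 2 shares rest on the smallest classes and the fewest measured members. Of the 8 interferon genes measured in all 4 fibroblast classes, Ifi27l2a was above 1 in all and Bst2 below 1 in all. Of 9 presentation genes so measured, Psmb10 was above 1 in all and H2-K1 and H2-D1 below. For comparison, 21.3% of all such genes were above 1 in all 4 classes and 22.4% below.

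**Figure D3:**
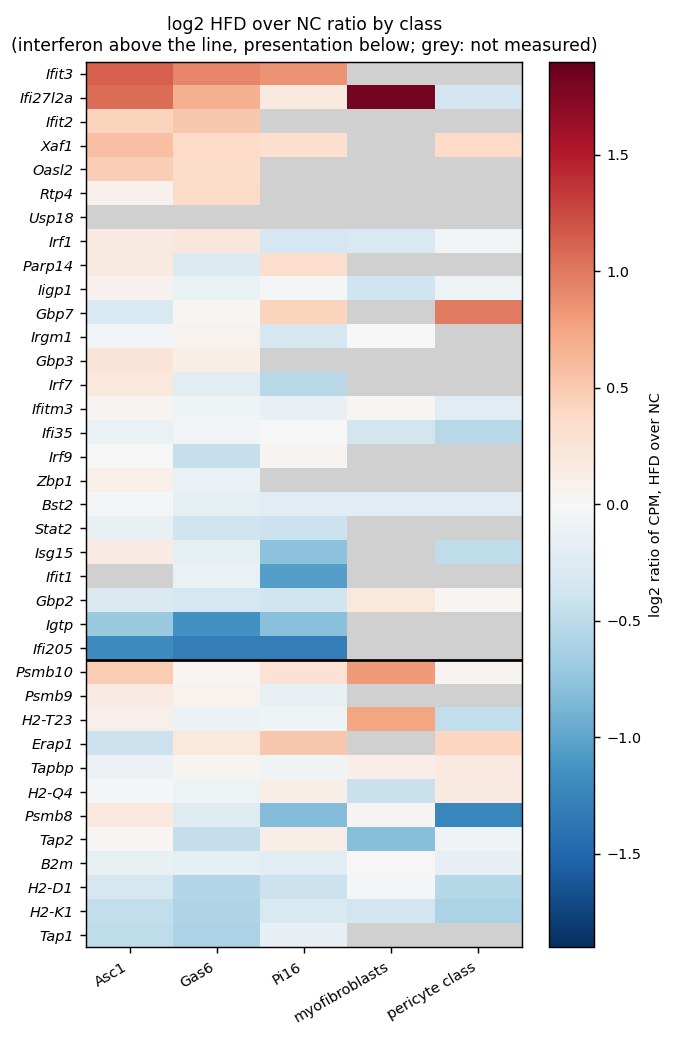
Log2 HFD over NC ratio of CPM for the 37 measured members (rows) in the 5 deposited classes (columns, with the class labelled pericytes as pericyte class), red for higher and blue for lower in HFD, grey where fewer than 50 effective counts were found. The Ifi27l2a row runs from a ratio of 3.53 in myofibroblasts to 0.776 in the class labelled pericytes, whereas the Ifi205 row is blue in all 3 classes with a value. Those 2 Ifi27l2a values lean on single cells, with 43.98% of the HFD myofibroblast counts and 34.24% of the NC pericyte class counts in 1 cell each.

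The ratio of Ifi27l2a differed between classes. Its levels in HFD and NC were 448 and 215 CPM in Asc1, 608 and 381 CPM in Gas6, 503 and 443.5 CPM in Pi16, 60.8 and 17.2 CPM in myofibroblasts and 70.9 and 91.4 CPM in the class labelled pericytes. The ratios were 2.09 (1.95 to 2.23), 1.60 (1.51 to 1.69), 1.14 (1.04 to 1.24), 3.53 (1.92 to 6.88) and 0.776 (0.607 to 0.997). The intervals of Asc1, Gas6 and Pi16 cells do not overlap, but they leave out spread between cells beyond the divisor used for every gene. The myofibroblast value rests on 22 HFD and 20 NC cells with a count, with 43.98% of the HFD counts in 1 cell, and its 10 highest cells held 82.4% and 81.0% of the counts. The value of the class labelled pericytes rests on 100 HFD and 41 NC cells with a count. There 1 cell held 34.24% of the NC counts, and the 10 highest cells held 38.85% in HFD and 83.37% in NC. The direction in that class is thus uncertain.

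Ifit3 was higher in HFD in each class, although it was measured in only 3 of them. Levels in HFD and NC were 23.8 and 10.9 CPM in Asc1, 19.6 and 10.3 CPM in Gas6 and 22.2 and 12.3 CPM in Pi16 cells, with ratios of 2.19 (1.62 to 2.97), 1.91 (1.36 to 2.67) and 1.81 (1.09 to 3.04). In myofibroblasts it stood at 16.3 and 11.3 CPM and in the class labelled pericytes at 4.69 and 3.63 CPM. Ifit1 was measured in Gas6 cells, at 6.24 and 6.81 CPM, and in Pi16 cells, at 8.63 and 17.9 CPM (0.483, 0.249 to 0.888). The Pi16 value rests on 73 counts in 14 HFD cells and 169 counts in 31 NC cells, with 30.2% of the NC counts in 1 cell. In Asc1 cells Ifit1 had 3.75 and 2.55 CPM, in myofibroblasts 14.4 and 19.6 CPM and in the class labelled pericytes 1.44 and 1.36 CPM.

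Ifi205 kept the same order of classes in both libraries, with overlapping intervals of the ratio in the 3 classes where it was measured. It was at 97.5 and 243 CPM in HFD and NC Pi16 cells (0.401, 0.336 to 0.477), at 30.4 and 75.6 CPM in Gas6 (0.403, 0.328 to 0.492) and at 6.06 and 13.95 CPM in Asc1 cells (0.434, 0.282 to 0.654). The class labelled pericytes had 2.57 and 12.3 CPM and myofibroblasts 0.282 and 4.46 CPM, both not measured. Igtp was at 6.97 and 11.4 CPM in Asc1 (0.613, 0.403 to 0.920), 6.91 and 15.3 CPM in Gas6 (0.453, 0.286 to 0.695) and 10.3 and 17.8 CPM in Pi16 cells (0.579, 0.314 to 1.03). In myofibroblasts Igtp had 8.17 and 19.02 CPM and in the class labelled pericytes 3.25 and 11.3 CPM.

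Isg15 and Psmb8 were lower in HFD in Pi16 cells while close to equal or above 1 in Asc1 cells. Isg15 was at 35.0 and 59.8 CPM in HFD and NC Pi16 cells (0.585, 0.426 to 0.795), 26.6 and 23.98 CPM in Asc1 (1.11, 0.879 to 1.40) and 47.2 and 53.3 CPM in Gas6 cells. Myofibroblasts held 24.8 and 29.7 CPM and the class labelled pericytes 13.1 and 18.4 CPM. Psmb8 was at 47.6 and 84.0 CPM in Pi16 cells (0.567, 0.434 to 0.736), 53.2 and 46.8 CPM in Asc1 (1.14, 0.964 to 1.34) and 49.0 and 57.2 CPM in Gas6 cells (0.857, 0.718 to 1.02). Myofibroblasts held 70.4 and 68.1 CPM, and the class labelled pericytes 18.8 and 44.5 CPM (0.422, 0.280 to 0.637). For both genes the Pi16 and Asc1 intervals do not overlap, though these too leave out wider spread between cells. The 10 highest Pi16 cells held 41.9% of the Isg15 counts in HFD and 34.8% in NC. In thinned Pi16 cells Isg15 was detected in 5.28% of HFD (3.78 to 7.14) and 7.69% of NC (6.11 to 9.53), with overlapping intervals. Psmb8 was detected there in 8.53% (6.61 to 10.8) and 13.8% (11.7 to 16.1), intervals that do not overlap.

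**Figure D4:**
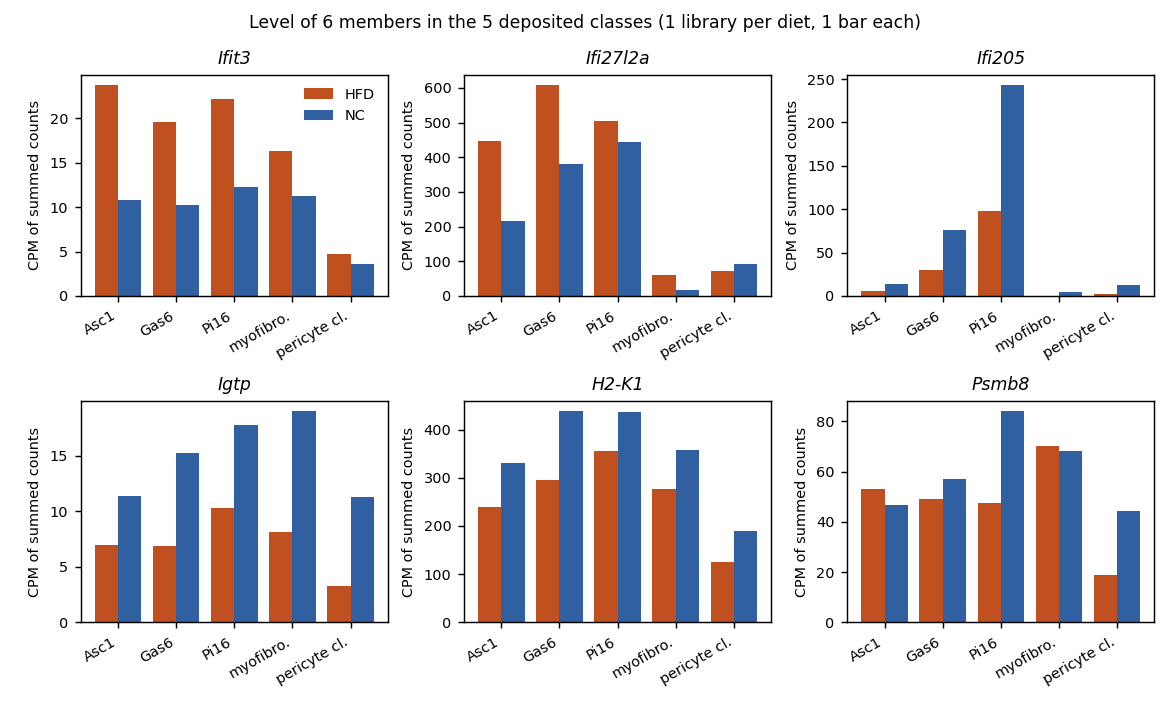
Level of Ifit3, Ifi27l2a, Ifi205, Igtp, H2-K1 and Psmb8 in CPM of summed counts for each deposited class, with 1 bar per library, HFD at the left (orange) and NC at the right (blue). The Ifi205 bars in Pi16 cells stand at 97.5 and 243 CPM, and for H2-K1 the HFD bar is the lower of the pair in all 5 classes.

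H2-K1 was lower in HFD in all 5 classes. Levels in HFD and NC were 240 and 331 CPM in Asc1 (0.723), 295 and 438 CPM in Gas6 (0.674), 356 and 437 CPM in Pi16 (0.814), 277 and 357 CPM in myofibroblasts (0.777) and 124 and 189 CPM in the class labelled pericytes (0.659, 0.553 to 0.786). H2-D1 had ratios of 0.799, 0.679, 0.757, 0.973 and 0.686 in the same order of classes. B2m had ratios from 0.873 in Pi16 to 1.005 in myofibroblasts. The light chain thus lay nearer to 1 than either heavy chain in all 5 classes, and in myofibroblasts H2-D1 was near 1 as well.

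The remaining calls within classes rested on small counts. In myofibroblasts H2-T23 was at 96.0 and 57.1 CPM in HFD and NC (1.68, 1.15 to 2.48), Psmb10 at 97.1 and 55.6 CPM (1.75, 1.19 to 2.58) and Tap2 at 25.9 and 45.2 CPM (0.573, 0.312 to 1.02). Elsewhere H2-T23 had ratios of 1.07 in Asc1, 0.923 in Gas6, 0.946 in Pi16 and 0.720 in the class labelled pericytes, and Psmb10 had 1.39, 1.02, 1.21 and 1.04. The ratios of Tap2 there were 1.02, 0.729, 1.09 and 0.951. Tap1 was at 9.96 and 15.1 CPM in Gas6 cells (0.662, 0.447 to 0.963), 8.37 and 11.7 CPM in Asc1 and 11.8 and 13.2 CPM in Pi16 cells. It was not measured in myofibroblasts (6.48 and 11 CPM) or in the class labelled pericytes (3.71 and 6.80 CPM). In the class labelled pericytes Gbp7 had 19.4 CPM in HFD and 9.75 CPM in NC (1.99, 1.02 to 4.25), from 56 HFD and 15 NC cells, and its ratios were 0.822 in Asc1, 1.02 in Gas6 and 1.34 in Pi16 cells. In myofibroblasts Gbp7 was at 25.1 and 23.5 CPM and was not measured.

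As to levels across classes, the class labelled pericytes had the lowest CPM in both libraries for 17 of the 25 measured interferon genes (68%) and 10 of the 12 presentation genes (83.3%), against 19.5% of 12016 genes compared in this way. Its summed presentation level was 770.5 CPM in HFD and 972 CPM in NC, against 1779 and 2005 CPM in Asc1 cells. Its cells were the deepest, with medians of 19714 and 15460 counts against 8473 and 6340 in Asc1 cells. In counts per cell the order differed, with 17.1 presentation counts in HFD and in NC cells of this class against 15.2 and 12.8 in Asc1 cells. The class was thus the lowest as a share of all counts and not per cell. Ifit2, Irf1, Stat2, Ifi35 and Iigp1 were highest in Asc1 cells in both libraries (20% of the interferon genes, against 17.7% of all genes). Irf7, Ifitm3 and Zbp1 were highest in Gas6 cells (12%, against 3.57%). Pi16 cells were highest for Ifi205 and Bst2 (8%, against 8.42%) and myofibroblasts for Ifit1 and Irgm1 (8%, against 12.1%). Among presentation genes, B2m was highest in Gas6 cells (8.33%) and H2-D1, H2-T23, H2-Q4 and Tapbp in Pi16 cells (33.3%).

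The members were also examined within single cells, to see whether a level came from a few responding cells. Co-detection used fibroblasts thinned to 5000 counts, 4901 in HFD and 6126 in NC, with 592 and 1764 shallower cells left out. Of the 20 measured interferon genes other than the abundant Ifitm3, Ifi27l2a, Irf1, Iigp1 and Bst2, 3 or more were detected together in 5.28% of cells in HFD (4.67 to 5.95), against 7.43% in NC (6.78 to 8.11). By class, the thinned shares were 4.13% and 4.52% in Asc1, 7.95% and 10.6% in Gas6, 7.04% and 10.1% in Pi16 and 2.49% and 4.58% in myofibroblasts, with overlapping intervals within each class. Asc1 cells, with lower shares than Gas6 cells, were 2666 of the 4901 HFD and 2830 of the 6126 NC cells. Gas6 cells were 1095 and 2002 of them, so the pooled shares also depend on class make-up. Unthinned, the shares were 9.16% and 10.2% in all fibroblasts, 5.56% and 4.88% in Asc1 and 20.5% and 21.9% in Gas6. They were 11.7% and 12.2% in Pi16 and 2.55% and 3.45% in myofibroblasts. In Asc1 cells the unthinned order was the other way, with intervals that overlap (4.78 to 6.43 and 4.23 to 5.59). Thinning also left out 426 HFD and 1169 NC cells of that class. The largest number of these genes in a thinned cell was 9 in HFD and 13 in NC.

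Cells with Ifit1 held Ifit3 and Isg15 more often than cells without it in both libraries. Ifit3 was detected in 10 of 49 Ifit1 cells of HFD (20.4%, 10.2 to 34.3) and in 20 of 89 of NC (22.5%, 14.3 to 32.6), against 3.94% and 1.79% of the cells without Ifit1. Isg15 was detected in 32.7% and 37.1% of the Ifit1 cells, against 5.32% and 6.10% of the rest. The higher Ifit3 level in HFD thus came with 191 Ifit3 cells among 4852 without Ifit1, against 108 among 6037 in NC. These pairs and the next were chosen after values had been seen. No share for other pairs of genes was computed to set beside them.

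Among pairs of GTPase genes, only Igtp with Iigp1 had a share in HFD whose interval lay apart from that in NC. Iigp1 was detected in 22.1% of the 86 HFD cells with Igtp (13.9 to 32.3) and in 47.3% of the 188 NC cells with Igtp (40 to 54.7), intervals that do not overlap. Among cells without Igtp the shares were 21.6% and 21.2%, equal within counting error. For Ifi47 the shares of Iigp1 were 33.3% of 33 cells in HFD (18 to 51.8), against 61.4% of 88 in NC (50.4 to 71.6), intervals that just overlap. For Tgtp2 they were 22.2% of 9 and 70% of 50 cells, with overlapping intervals. Irgm1 cells had shares of 38.3% (32.2 to 44.7) and 50% (44.5 to 55.5), and Gbp2 cells did not differ beyond counting error, at 31.7% and 32.4%. H2-Q7 was found in 0 of 86 Igtp cells of HFD, where 0 allows up to 3.49% of cells with a count (3 of 86), and in 8.51% of 188 Igtp cells of NC (4.94 to 13.5). Left unthinned, Igtp cells had an Iigp1 count in 35.3% of 133 cells in HFD (27.3 to 44.1). In NC it was 49.4% of 271 (43.3 to 55.6), and the intervals overlap. The size of the gap thus depended on thinning, which also left out shallower cells. In thinned cells with no immune marker count the shares were 17% of 53 (8.07 to 29.8) and 37.1% of 89 (27.1 to 48), with overlapping intervals.

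**Figure D5:**
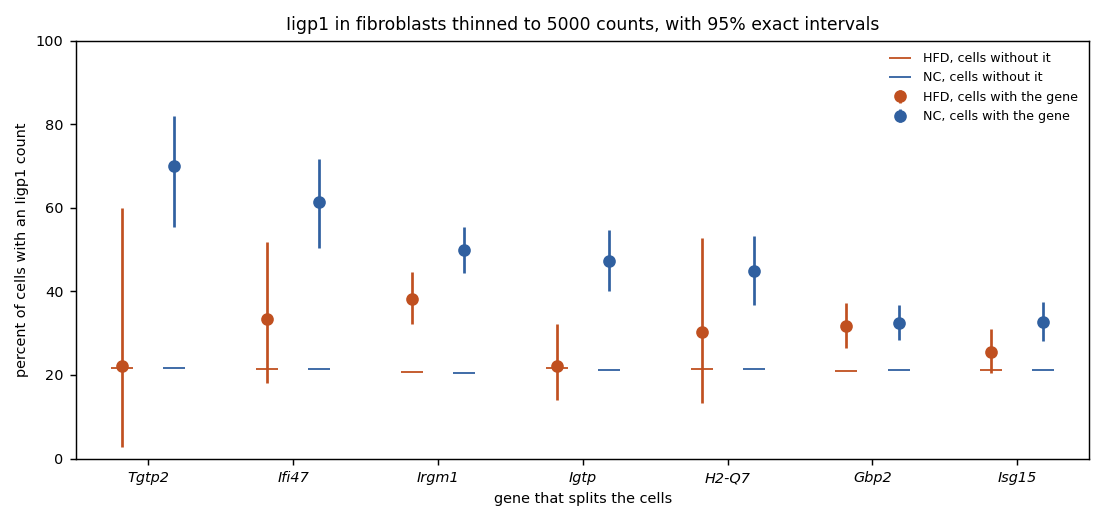
Percent of fibroblasts with an Iigp1 count among cells that do (points with 95% exact binomial intervals) or do not (short lines) have a count of the gene on the horizontal axis, in cells thinned to 5000 counts, HFD at the left (orange) and NC at the right (blue). Cells without the gene lie between 20.4% and 21.6% in both libraries, while for Igtp cells the point is 22.1% in HFD and 47.3% in NC.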

How the data were processed

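Lung stroma was profiled with a 10x Genomics Single Cell 3′ kit, per the labels' protocols. The submitters' processing notes name STAR and the genome build mm39. Versions, strand use and whether molecules were counted are not given in the sources used here. The authors deposited log2 expression per cell, which the values show to be log2 of CPM plus 1, together with an estimated count total for each cell. Mitochondrial content was deposited in percent, per the file headers. The log2 scale was inverted and each cell's total applied to recover counts. Of the nonzero values, 98.85% in HFD and 98.96% in NC lay within 0.01 of a whole number, and rounding followed. A gene table gave symbols to 20180 of 21014 identifiers.

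The 5 classes are those of the deposited annotation, and no cell was removed as a doublet. Counts were added up over the cells of a class and turned into CPM. Among genes seen in 0.1 to 1% of cells, positive cells held a mean of 3.25 counts in HFD and 2.66 in NC, so intervals used effective counts. Ratios carry exact conditional Poisson intervals and shares exact Clopper-Pearson intervals at 95% (numpy 2.4.6, pandas 2.3.3, scipy 1.17.1). The calculation was tested on simulated data. edgeR 4.0.16 was used only for TMM scaling factors in an alternative. To compare shares, cells were thinned to 5000 counts and shallower cells left out.

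The members and lists were chosen with earlier results of these data known. Members past 1.5-fold in any class are given in every class, with up to 4 genes per pathway list, those whose interval bound nearest to 1 lay farthest from it. Other relatives, families and gene pairs were named after their values had been seen. Alternatives changed the cell filter, scaling, classes, cells, count minimum and fold. Those without the SNAT2 subset and without cells holding class II counts were added after seeing the data. The reference annotation is of another build, so it gave names, gene order and RefSeq promoters only. A gene of the receptor and signalling list is not reported here.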

Additional observations from a re-analysis of the deposited data

How the results depend on the processing

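No paired analysis was possible because each diet had 1 library. Over up to 18 alternatives, the log2 ratio ran from 0.83 to 1.19 for Ifit3, −1.59 to −1.28 for Ifi205, −1.11 to −0.82 for Igtp, 0.48 to 0.70 for Ifi27l2a, −0.61 to −0.42 for H2-K1 and −0.57 to −0.35 for H2-D1. In the pooled fibroblasts, 4 interferon genes passed the size in the main setting and 10 at the smaller size of 5 to 4. The interferon median moved to −0.15 without the Asc1 class and −0.17 with all 5 classes. Presentation genes past the size, 0 in the main setting, numbered 2 with all 5 classes, 1 without the 10 cells with the most counts of each gene, 1 with no minimum, 1 with counts as recovered and 3 at the smaller size. Their median moved to −0.22 with all 5 classes.

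Counts of members past the size within classes depended on the limits. With at least 200 effective counts, with no minimum and at the smaller size they were 1, 7 and 12 in Asc1 (4 in the main setting), 2, 8 and 14 in Gas6 (5), 3, 10 and 14 in Pi16 (6), 0, 17 and 8 in myofibroblasts (4) and 1, 13 and 10 in the class labelled pericytes (3). In Gas6 cells the count was 8 without the 10 highest cells of each gene and 9 without cells holding an immune marker count. In myofibroblasts it was 2 without those 10 cells and 13 with counts as recovered. In the class labelled pericytes it was 5 with median-of-ratios scaling, 5 with mean CPM per cell, 0 in thinned cells and 8 with counts as recovered. The last class had 250 NC cells, and leaving out the 10 highest cells of each gene moved the median of all genes there to 0.44 on the log2 scale, since they are a larger part of the smaller library. In other cases the cause was not tested. Of the 37 measured members, 15 took the other sign in at least 1 alternative, among them Parp14 in 8, Irf7, Gbp7 and H2-T23 in 4 each, and Ifit1 in 1, with a log2 ratio of 0.03 without cells holding an immune marker count. Depth limits Ifi44, Rsad2 and Nlrc5, and most members in myofibroblasts.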

Other observations

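A finer deposited annotation splits an SNAT2 subset of 245 HFD and 359 NC cells from the Asc1 class. These cells were shallow, with medians of 4009 counts in HFD and 3037 in NC, and held a median of 6.27% and 6.44% mitochondrial counts, against 3.48% and 3.40% in the other Asc1 cells. Of the 40 members 10 were measured in them and 0 passed 1.5-fold, where 15.9% of 1569 measured genes did. The summed level of the 13 presentation genes in this subset was 1913 CPM in HFD and 2036 CPM in NC. In the Asc1 cells outside the subset, the ratio was 2.11 (1.97 to 2.25) for Ifi27l2a, 2.21 (1.63 to 3.02) for Ifit3, 0.451 (0.288 to 0.690) for Ifi205 and 0.627 (0.409 to 0.948) for Igtp.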
